A study of Mus musculus with 2 samples.

Results

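The macrophage growth factor Csf1, its receptor Csf1r and 8 genes used to recognise macrophages or their states (Adgre1, Cd68, Lyz2, Mrc1, Cd163, Folr2, Trem2 and Gpnmb) were followed across all clusters of cells from ligated and mock-operated mouse salivary glands. These 10 genes were chosen by name, and all 10 had a row among the 20140 genes of the deposited tables. The mice were female C57BL6/J animals of 14 weeks with no transgene or deletion named in the labels. In the ligated group the ducts draining the submandibular and sublingual glands were closed with a metal clip for 14 days. In the mock group the surgery found the ducts without clipping them and healing took 14 days. Each group is 1 droplet library of stroma-enriched submandibular gland, made from 2 glands. Epithelial cells (by EpCAM), red blood cells (by Ter119) and dead cells had first been depleted. There is 1 library per condition, so nothing below was tested or checked against replicates, and the values hold for these 2 libraries alone.

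Macrophages depend on the receptor tyrosine kinase CSF1R for survival, growth and differentiation. The receptor has a pair of ligands, CSF1 and interleukin 34, which are made mostly by other cells, among them fibroblasts, endothelial cells and, for interleukin 34, neurons and keratinocytes. Tissue macrophages are commonly described by scavenger receptors of resident cells (CD163, MRC1, FOLR2) and by lipid and lysosome genes of cells that clear debris (TREM2, GPNMB), while CCR2 and LY6C mark cells that have recently come from blood monocytes.

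Levels are means over the cells of a cluster, scaled to 10000 UMIs in each cell (a UMI marks 1 captured RNA molecule). The 12 clusters of all cells held 11406 ligated and 4199 mock cells by numbers recovered from the means, and the UMI totals that could be recovered had medians of 6569 in 2202 ligated cells and 6547 in 610 mock cells. Macrophage-like cluster 5 held 680 ligated cells, 5.96% of that library (exact Clopper-Pearson 95% interval 5.53 to 6.41), and 77 mock cells, 1.83% (1.45 to 2.29). All 8 macrophage markers were above 0 in it in both libraries, and their summed level was 143.6 in mock and 175.1 in ligated cells. Markers of other cell types were also present there: for mock and ligated cells the 4 B cell markers summed to 2.95 and 1.51, the 6 dendritic cell markers to 1.21 and 0.793, the 8 fibroblast markers to 0.636 and 3.26, and the 8 acinar markers to 21.2 and 8.90. Over all markers of other types the median level in cluster 5 was 10.8% of the library mean for mock and 22.7% for ligated cells. The part of RNA from other cells in the results on cluster 5 was not tested.

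The 250 bases upstream of the annotated start (RefSeq, GRCm38.p6) were available for 8 of the 10 genes. They are shown for 3 genes whose RNA was concentrated in the macrophage-like cluster and for Csf1, whose RNA lay in stromal clusters, so that the start regions of both kinds of gene can be compared. Capitals mark GAGGAA on either strand, a core of the sites bound by the myeloid factor PU.1. Each is written 5′ to 3′ on the strand of its gene.
Cd68: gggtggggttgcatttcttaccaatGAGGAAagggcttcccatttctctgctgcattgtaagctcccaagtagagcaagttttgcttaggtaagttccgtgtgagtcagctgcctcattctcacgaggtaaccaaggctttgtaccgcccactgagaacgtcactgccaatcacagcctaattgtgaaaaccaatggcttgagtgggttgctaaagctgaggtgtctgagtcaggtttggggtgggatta
Trem2: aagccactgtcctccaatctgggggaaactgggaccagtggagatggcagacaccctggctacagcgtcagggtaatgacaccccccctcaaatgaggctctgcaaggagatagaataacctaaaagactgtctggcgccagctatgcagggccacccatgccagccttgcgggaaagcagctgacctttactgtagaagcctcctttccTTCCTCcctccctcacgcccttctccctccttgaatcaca
Lyz2: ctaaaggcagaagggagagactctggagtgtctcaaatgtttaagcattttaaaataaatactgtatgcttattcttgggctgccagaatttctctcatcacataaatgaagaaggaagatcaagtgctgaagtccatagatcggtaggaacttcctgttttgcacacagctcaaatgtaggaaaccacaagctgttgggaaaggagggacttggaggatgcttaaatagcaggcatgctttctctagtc
Csf1: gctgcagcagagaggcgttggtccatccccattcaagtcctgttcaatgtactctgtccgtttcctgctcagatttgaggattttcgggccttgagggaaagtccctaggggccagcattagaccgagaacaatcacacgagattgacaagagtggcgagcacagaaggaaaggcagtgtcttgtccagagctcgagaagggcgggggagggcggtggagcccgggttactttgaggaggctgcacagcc
The windows are chr11:69666171-69666420 (minus strand) for Cd68, chr17:48346151-48346400 (plus) for Trem2, chr10:117282273-117282522 (minus) for Lyz2 and chr3:107760470-107760719 (minus) for Csf1. GAGGAA was found 1 time in the Cd68 window, 1 time in that of Trem2 and 3 times in that of Mrc1, and in none of those of Lyz2, Csf1, Gpnmb, Cd163 and Folr2. It was present in 23.3% of 32851 windows of this length, against 3 of the 8 genes. TGANTCA, the AP-1 site, lay in the windows of Cd68, Trem2 and 1 of the 2 windows of Folr2 and in 6.75% of all windows. TATAAA lay in none of them and in 12.4% of all windows. A match is a description of the letters and shows no binding.

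Csf1 was a stromal transcript in both libraries, and the single cluster with the largest share of it differed between them. With both libraries together its level was highest in fibroblast-like cluster 3 (1.04), followed by endothelial-like cluster 0 (0.565) and the second endothelial-like cluster 4 (0.514), an arterial and lymphatic gene cluster. In fibroblast-like cells Csf1 stood at 1.20 in the mock library (approximate 95% counting interval 1.07 to 1.35) and at 1.01 in the ligated library (0.965 to 1.06). In endothelial-like cluster 0 it stood at 0.819 in the mock library (0.780 to 0.860) and at 0.361 in the ligated library (0.337 to 0.385), so the mock level was 2.27 times the ligated level. These intervals come from the UMIs that the level corresponds to at the median recovered total, cover counting error only and are likely too narrow, because deep cells are overrepresented among recovered totals.

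The other vascular clusters lay in the same direction. Csf1 stood at 0.771 in the mock and 0.405 in the ligated cells of the second endothelial-like cluster, and their intervals (0.635 to 0.927 and 0.340 to 0.480) did not overlap. In mural-like cluster 6, the pericytes and smooth muscle cells around vessels, it stood at 0.543 and 0.336, and the intervals (0.411 to 0.705 and 0.262 to 0.425) overlapped. Lymphocyte clusters were low in both libraries, with 0.0823 and 0.0910 in natural killer-like cluster 1 and 0.114 and 0.0703 in T cell-like cluster 2 for mock and ligated cells. The macrophage-like cells themselves held little Csf1, with 0.0431 in the mock and 0.103 in the ligated cells. Those levels are 7.14% and 35.2% of the library means of Csf1, beside shares of 10.8% and 22.7% for markers of other cell types in the same cells.

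**Figure D1:**
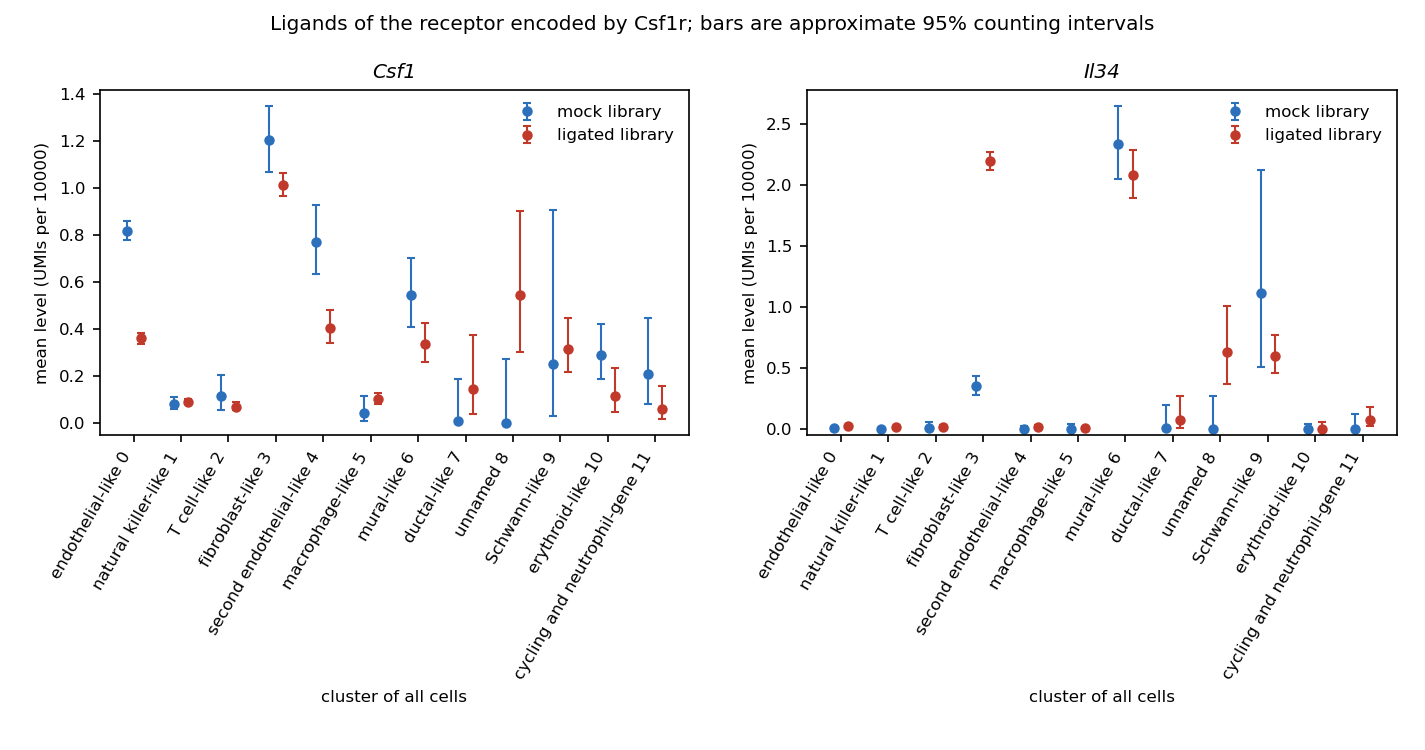
Mean level of Csf1 (left) and Il34 (right) in UMIs per 10000 UMIs of the cell on the vertical axis, by cluster of all cells on the horizontal axis, with mock cells in blue, ligated cells in red and bars for approximate 95% counting intervals. Csf1 in endothelial-like cluster 0 stands at 0.819 in the mock and 0.361 in the ligated library, and Il34 in fibroblast-like cluster 3 at 0.348 and 2.19.

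Differences are written as log2((ligated + 0.1)/(mock + 0.1)), and a gene passes the size rule with a level of 0.5 or more in either library and a difference of 1 or more in either direction. Only the 9 clusters that held 50 or more cells of both libraries were compared. The Csf1 difference was -0.997 in endothelial-like cluster 0, just short of the rule, -0.79 in the second endothelial-like cluster, -0.56 in the mural-like and -0.23 in the fibroblast-like cluster, so Csf1 passed in none of them. The rule held for 6.6% of 3849 genes that reached the minimum in cluster 0 (2.68% of them lower in the ligated library), 6.1% of 3918 in the second endothelial-like cluster, 9.41% of 4069 in the mural-like cluster and 9.78% of 3762 in the fibroblast-like cluster. With a pseudocount of 0.01 in place of 0.1 the difference in cluster 0 was -1.16 and passed.

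The distribution of Csf1 RNA over clusters was set beside the cell mix of each library. Summed over cells, endothelial-like cluster 0 held 76.3% of the Csf1 of the mock library and 31.9% of that of the ligated library. Fibroblast-like cluster 3 held 8.92% and 34.9%, the second endothelial-like cluster 6.87% and 6.45%, and mural-like cells 3.45% and 4.23%. Both endothelial-like clusters together held 83.2% of the mock and 38.3% of the ligated Csf1. The fibroblast-like and mural-like clusters together held 12.4% and 39.1%. Natural killer-like cells held 2.20% and 9.14% of it and made up 16.2% of the mock and 29.4% of the ligated cells. The mean of Csf1 over the whole library was 0.604 in the mock and 0.293 in the ligated library. With the cell mix of the mock library applied to the ligated levels it was 0.316, and with the ligated mix applied to the mock levels it was 0.438.

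**Figure D2:**
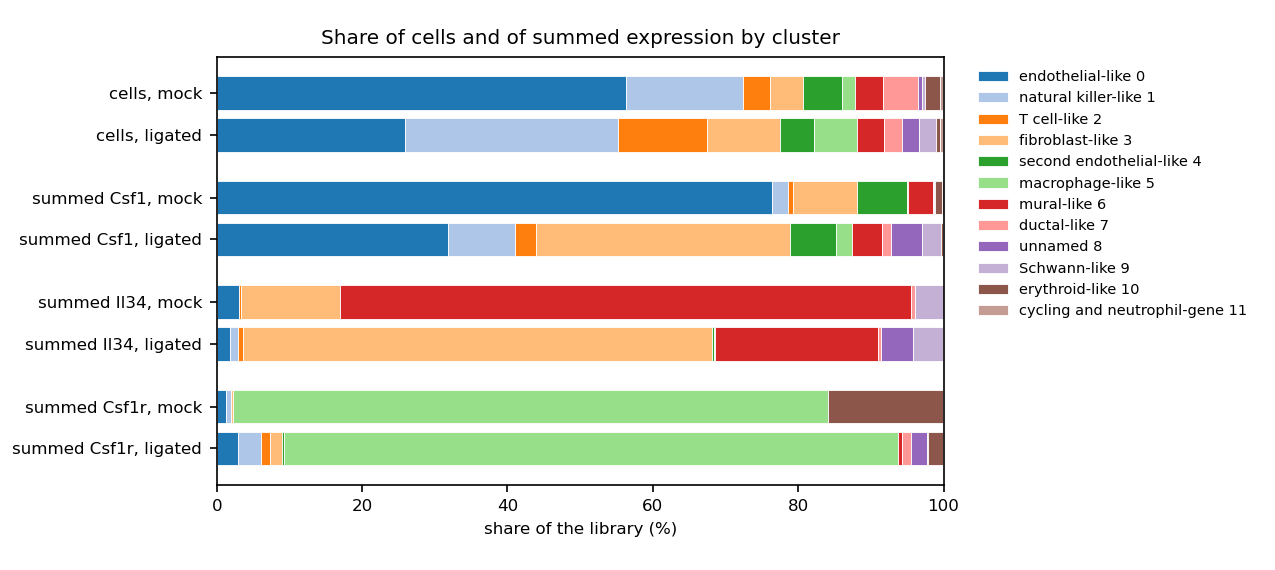
Stacked bars give the share (%, horizontal axis) of each library's cells and of its summed Csf1, Il34 and Csf1r expression that lay in each of the 12 clusters (colours). Endothelial-like cluster 0 goes from 76.3% of the summed Csf1 in the mock library to 31.9% in the ligated library, and fibroblast-like cluster 3 from 8.92% to 34.9%.

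A second clustering by the authors covers cells that their file name ties to PDGF receptors and Gli1, whose 1935 ligated and 401 mock cells are also among all cells. This subset held 13.9% of the summed Csf1 of the mock library and 41.2% of that of the ligated library. Its fibroblast-like cluster 0 had Csf1 levels of 1.12 in the mock (0.985 to 1.28) and 1.02 in the ligated cells (0.962 to 1.08), whose intervals overlapped. A second fibroblast-like cluster led by Pi16 and Dpt, genes of adventitial fibroblasts, had 2.21 and 1.57, but held only 10 mock and 17 ligated cells and was not compared. The endothelial-like cells of this subset had 0.932 and 0.608 (difference -0.54), and its mural-like cells 0.469 and 0.282 (-0.57). Averaged over the subset, Csf1 stood at 0.878 in the mock and 0.710 in the ligated library, and over the remaining cells at 0.575 and 0.207.

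Il34, the other ligand of the receptor, was taken from the list of growth factors and receptors and is not among the 10 genes. It was highest in mural-like and fibroblast-like cells, and Schwann-like cluster 9, which was not compared, had 1.11 in 17 mock and 0.598 in 271 ligated cells. In fibroblast-like cluster 3 it stood at 0.348 in the mock library (0.278 to 0.431) and at 2.19 in the ligated library (2.12 to 2.27), 6.30 times the mock level, and its difference of 2.35 passed the size rule. In the mural-like cluster it stood at 2.33 and 2.08 (difference -0.16), and in endothelial-like cluster 0 at 0.00619 and 0.0234. Fibroblast-like cells held 13.7% of the summed Il34 of the mock library and 64.5% of that of the ligated library, while mural-like cells held 78.6% and 22.4%. The library mean was 0.114 in the mock and 0.343 in the ligated library, and 0.205 for ligated levels at the mock cell mix.

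The subset gave like values for Il34, and as its cells are also among all cells, this is no second support. Its fibroblast-like cluster 0 had 0.357 in the mock and 2.30 in the ligated cells, a difference of 2.39, where 10.1% of 3749 genes passed the rule in either direction and 4.75% as higher. Its endothelial-like cluster 3 had 0.160 and 0.677, a difference of 1.58, where 10.5% of 4115 genes passed, 6.29% as higher. In both of these subset clusters Il34 reached the minimum through the ligated cells alone, so these passes support nothing by themselves. Its mural-like cluster 2 had 2.82 and 2.71 and did not pass, where 8.51% of genes did. An unnamed subset cluster with 14 mock cells was not compared. The library mean was lower for Csf1 and higher for Il34 in the ligated than in the mock library.

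Of the 8 other genes in the list of growth factors and receptors, which included Csf1r, none passed the rule in any of the 9 compared clusters; of all genes that could pass, 4.56% did in natural killer-like and 5.34% in T cell-like cells. The list's single pass among 10 genes was Il34 in the fibroblast-like cluster, where 4.47% of genes passed as higher in the ligated library. Il34 reached the minimum there through the ligated cells alone, so this count supports nothing by itself. Csf2ra, a receptor chain for granulocyte-macrophage colony-stimulating factor, stood at 2.55 in the mock and 1.67 in the ligated macrophage-like cells. Csf2, its ligand, was highest in lymphocytes, with 0.0441 and 0.00808 in natural killer-like and 0.0444 and 0.0130 in T cell-like cells. Flt3l, a ligand that supports dendritic cells, stood at 0.549 and 0.748 in T cell-like and at 0.477 and 0.664 in natural killer-like cells. Csf3 was listed at 0 throughout the mock library, and its highest ligated level was 0.00319, in endothelial-like cluster 0 (about 8 UMIs at median depth).

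The receptor Csf1r lay in macrophage-like cells at about the same level in both libraries. In cluster 5 it stood at 4.94 in the mock (4.48 to 5.44) and 5.35 in the ligated cells (5.18 to 5.51), and the intervals overlapped. Cluster 5 held 81.9% of the summed Csf1r of the mock library and 84.5% of that of the ligated library. Next in order was erythroid-like cluster 10, with 0.869 and 1.49. Among the other clusters of all cells, apart from unnamed cluster 8 (0.365 in the ligated cells), the highest level was 0.195, in the ductal-like ligated cells. In the subset, unnamed cluster 1 had 0.622 in 14 mock and 0.601 in 435 ligated cells and held 6.08% of the ligated library's Csf1r. The library mean of Csf1r was 0.111 in the mock and 0.377 in the ligated library, 3.41 times as high, while the level within cluster 5 was 1.08 times as high. With the mock cell mix applied to the ligated levels the library mean was 0.178, 1.61 times the mock value. Exons of Csf1r overlap those of Hmgxb3 on the opposite strand. Exons of Il34 likewise overlap those of Gm15894 and Gm15895, and exons of Folr2 those of Gm10602. Whether the authors counted by strand is not given in the sources used here.

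**Figure D3:**
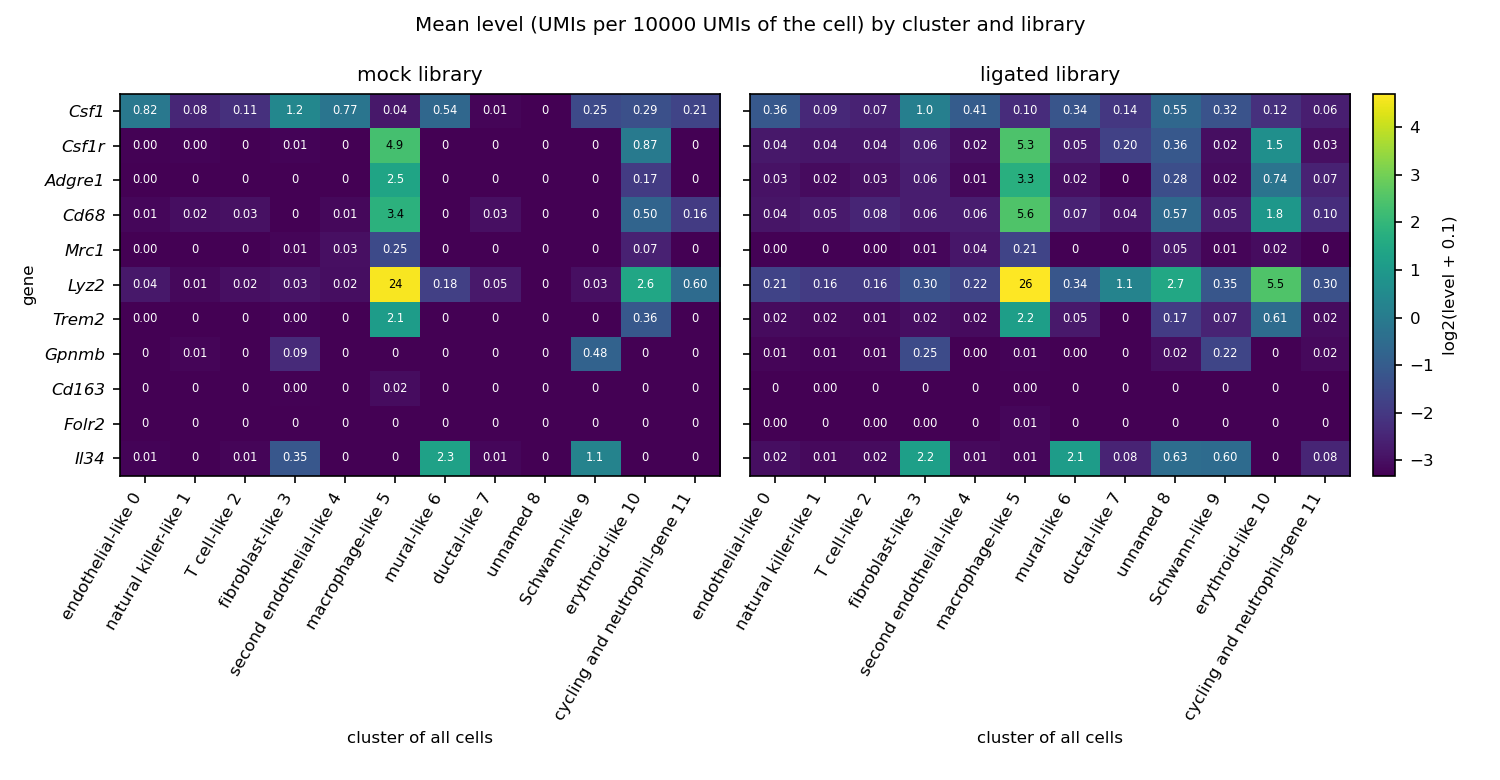
Mean levels of the 10 genes and Il34 (rows) in the 12 clusters (columns) of the mock (left) and ligated (right) library, printed in UMIs per 10000 UMIs of the cell and coloured by log2(level + 0.1); a bare 0 is a value listed at 0, and 0.00 is above 0. Csf1r, Adgre1, Cd68, Lyz2 and Trem2 are highest in macrophage-like cluster 5 in both libraries, whereas Csf1, Gpnmb and Il34 lie in other clusters.

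The pan-macrophage genes Adgre1, Cd68 and Lyz2 were all highest in cluster 5. Adgre1, which encodes the F4/80 antigen, stood at 2.47 in the mock (2.15 to 2.83) and 3.27 in the ligated cells (3.15 to 3.40), a difference of 0.39. Cd68, a protein of lysosome membranes, stood at 3.45 (3.07 to 3.86) and 5.55 (5.39 to 5.72), a difference of 0.67. The counting intervals of both genes lay apart, with the ligated cells higher. Lyz2, the myeloid lysozyme, stood at 24.3 (23.3 to 25.4) and 25.6 (lower bound 25.3), a difference of 0.07, and the intervals overlapped. Thus none of the 5 genes that reached a level of 0.5 in cluster 5 (these 3, Csf1r and Trem2) passed the size rule there, where 8.48% of 3183 genes did. A threshold of 1.5-fold in place of 2-fold would have added Cd68.

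**Figure D4:**
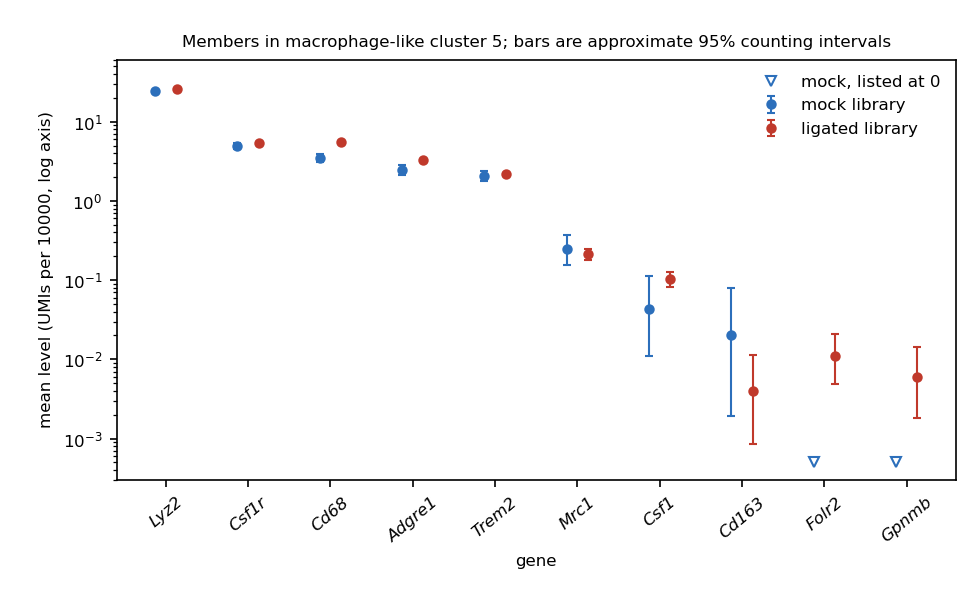
Levels of the 10 genes in macrophage-like cluster 5 on a log axis (UMIs per 10000 UMIs of the cell), with 77 mock cells in blue, 680 ligated cells in red and bars for approximate 95% counting intervals; open triangles mark genes listed at 0, drawn at the foot of the axis. Of the 5 genes above 0.5, Csf1r, Lyz2 and Trem2 have overlapping intervals, and Cd68, at 3.45 and 5.55, and Adgre1, at 2.47 and 3.27, do not.

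The state genes were uneven. Trem2, a lipid-sensing receptor of phagocytes, stood at 2.05 in the mock (1.76 to 2.38) and 2.17 in the ligated macrophage-like cells (2.06 to 2.27), and cluster 5 held 82.8% and 84.2% of its summed expression. Mrc1, the mannose receptor, stood at 0.247 (0.153 to 0.376) and 0.212 (0.181 to 0.247), below the minimum of the size rule. Cluster 5 held 54.8% of the summed Mrc1 of the mock and 68.9% of that of the ligated library. The second endothelial-like cluster, in which Ccl21a, a chemokine of lymphatic vessels, stood high, held 17.3% and 10.1% at levels of 0.0266 and 0.0397. Mannose receptor is also known from lymphatic endothelium. Erythroid-like cluster 10 held 16.1% and 0.572% at levels of 0.0655 and 0.0199. In the mock cells of these clusters 3 UMIs at median depth give 0.0205 and 0.0327. Which cells in them held Mrc1 was not tested.

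Cd163, the haemoglobin scavenger receptor, and Folr2, folate receptor beta, were close to the limit of detection. Cd163 stood at 0.0202 in the mock and 0.00401 in the ligated cells of cluster 5, where 3 UMIs in cells of median depth give 0.0349 and 0.00386. Outside cluster 5 its values were those of 1 UMI in 1 ligated natural killer-like cell of 4239 UMIs and 1 UMI in 1 mock fibroblast-like cell of 14341 UMIs. Folr2 stood at 0.0110 in the ligated cells of cluster 5 and was listed at 0 in every mock cluster; in the 77 mock cells of cluster 5, 3 UMIs at median depth give 0.0349. A difference in either gene was not detectable at this depth.

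Gpnmb, a lysosomal glycoprotein used with Trem2 to mark lipid-handling macrophages, was hardly detected in the macrophage-like cells of these libraries. It was listed at 0 in the mock cells of cluster 5 and stood at 0.00592 in the ligated cells, which held 0.969% of that library's summed Gpnmb. Fibroblast-like cluster 3 held 56.1% of the summed Gpnmb in the mock and 69.9% in the ligated library. There it stood at 0.0930 in the mock (upper bound 0.140) and 0.253 in the ligated cells (0.229 to 0.278), a difference of 0.87, and it did not reach the minimum level of the rule. Schwann-like cluster 9 had 0.477 in 17 mock cells and 0.217 in 271 ligated cells, and it was not compared. In the subset, fibroblast-like cluster 0 held 34.5% of the summed Gpnmb of the mock library and 61.4% of that of the ligated library.

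Low levels of Lyz2, Csf1r and Cd68 in endothelial-like cluster 0 and fibroblast-like cluster 3 were higher in the ligated cells. In endothelial-like cluster 0, Lyz2 stood at 0.0430 in the mock and 0.209 in the ligated cells, Csf1r at 0.00256 and 0.0425, and Cd68 at 0.0114 and 0.0369. In fibroblast-like cells Lyz2 stood at 0.0348 and 0.304, and Adgre1 was listed at 0 in the mock cells and stood at 0.0560 in the ligated cells. As a share of its own library mean, ligated Csf1r was 11.3% in cluster 0, 10.6% in cluster 1, 10.3% in cluster 2 and 16.3% in cluster 3. Markers of other cell types stood at 9.33%, 7.37%, 8.67% and 9.62% of their means in the same ligated cells, against 4.14%, 1.96%, 3.05% and 3.26% in the mock cells. The 8 macrophage markers summed to 0.719 in the mock and 1.61 in the ligated cells of cluster 0 and to 0.486 and 2.04 in those of cluster 3. The part of RNA from other cells in these values was not tested.

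Of the 10 genes, Lyz2, Adgre1 and Cd68 passed the size rule, in the ductal-like or the erythroid-like cluster, and no other gene passed in any of the 9 compared clusters. In ductal-like cluster 7, Lyz2 stood at 0.0465 in the mock and 1.11 in the ligated cells, where 26.5% of 3255 genes passed, 14.8% as higher. In the mock cells of this cluster 1 UMI at median depth gives 0.0462 and 3 UMIs give 0.139. The 8 macrophage markers summed to 0.274 and 4.31 there, and markers of other types stood at 7.70% and 20.9% of the library mean. In erythroid-like cluster 10, 3 of 5 genes that reached the minimum passed as higher, against 23% of 2994 genes (25.2% in either direction). These were Adgre1 (0.166 and 0.741), Cd68 (0.501 and 1.79) and Lyz2 (2.61 and 5.49). Adgre1, like Lyz2 in the ductal-like cluster, reached the minimum through the ligated cells alone, so the count supports nothing by itself. The median difference of all measured genes was 0.39 in this cluster, and centred on it Adgre1 and Cd68 passed while Lyz2 had 0.66 and did not. All 8 macrophage markers were above 0 in this cluster in both libraries, with sums of 20.1 and 42.7.

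Within macrophage-like cells, 5 genes listed as markers of blood monocytes were lower in the ligated library. Of 12 listed genes 6 reached a level of 0.5, and 5 passed as lower, where 4.34% of 3183 genes did so. Of these 5, Ccr2, Chil3, Nr4a1 and Ace reached that level through the mock cells alone, so the count supports nothing by itself. The median difference was -1.38 over 11 measured genes, against 0.07 over all 9798 measured genes. The gene at this median was Cd300e, at 0.160 in the mock cells and listed at 0 in the ligated cells. Cd300e, F10 and Treml4 entered the measured genes through the mock cells alone, so the median supports nothing by itself either. Ccr2, the chemokine receptor of inflammatory monocytes, stood at 1.54 in the mock and 0.449 in the ligated cells, and Plac8 at 2.47 and 0.507. Chil3, a chitinase-like protein, stood at 0.664 and 0.0851, Nr4a1, a nuclear receptor needed by patrolling monocytes and also an immediate early gene, at 0.949 and 0.119, and Ace, the angiotensin-converting enzyme, at 0.507 and 0.0919. With the other-type share of 22.7% or 10.8% of each gene's library mean subtracted, the difference of Ccr2 went from -1.58 to -2.08, and the ligated level of Ace went to 0. Ly6c2 stood at 0.245 and 0.344 and did not reach the minimum. The mock values rest on 77 cells.

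Lipid and lysosome genes were divided. Of 20 listed genes 17 reached the minimum, of which 3 passed as higher and 2 as lower, against 4.15% and 4.34% of all genes. The median difference was 0.28. Ctsd, a lysosomal protease, stood at 3.02 in the mock and 7.33 in the ligated cells, and Mmp12, the macrophage elastase, at 0.487 and 1.33. Spp1, which encodes osteopontin, stood at 0.262 and 0.728, but the ligated level is below the level that the other-type share of 22.7% gives for its library mean of 3.32, and subtraction of that share turned its difference to -1.82. Fabp5, a fatty acid carrier, stood at 2.87 and 0.544, beside library means of 5.75 in the mock and 1.13 in the ligated library. Lpl, lipoprotein lipase, stood at 4.58 and 2.06, beside library means of 1.29 and 2.82. The same subtraction took the difference of Fabp5 from -2.21 to -2.61 and that of Lpl from -1.11 to -1.58. Mmp12 and Spp1 reached the minimum through the ligated cells alone, so the count of genes passing as higher supports nothing by itself.

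**Figure D5:**
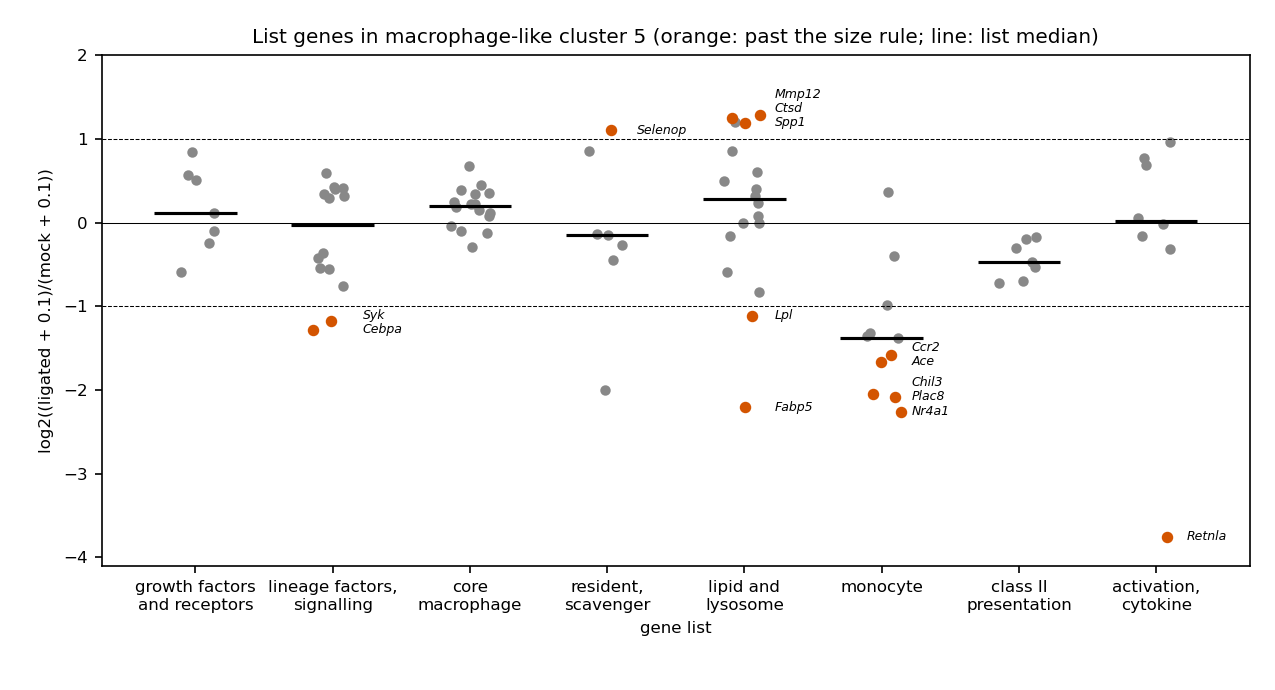
Differences log2((ligated + 0.1)/(mock + 0.1)) in macrophage-like cluster 5 (vertical axis) for the genes of 8 lists (horizontal axis); each point is a gene with a mean of both levels of at least 0.05, orange points pass the size rule, black lines are list medians and dashed lines mark a difference of 1 in size. The monocyte genes have a median of -1.38 and 5 passed as lower, while none of the core macrophage genes passed. Of these 5, Ccr2, Chil3, Nr4a1 and Ace reached the minimum level through the mock cells alone. The gene at the monocyte median, Cd300e, is listed at 0 in the ligated cells.

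In cluster 5 none of the 15 core macrophage genes that reached the minimum among 16 listed passed, against 8.48% of all genes there, and their median difference was 0.20. C1qa, a complement subunit made by macrophages, stood at 52.5 in the mock and 67.0 in the ligated cells, and the fractalkine receptor Cx3cr1 at 6.60 and 6.41. Of 13 resident and scavenger genes 3 reached the minimum and 1 passed as higher, against 4.15% of all genes: Selenop, a selenium carrier, stood at 2.32 and 5.09. Timd4 and Cd209f of that list had no row in the tables. F13a1, a transglutaminase of resident macrophages, stood at 0.461 and 0.0408 and did not reach the minimum.

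Of 14 lineage factors and signalling genes of the receptor, all reached the minimum and 2 passed as lower, against 4.34% of all genes in cluster 5 (8.48% in either direction). Cebpa, a factor of myeloid development, stood at 1.44 in the mock and 0.533 in the ligated cells, and the kinase Syk at 1.07 and 0.418. Spi1, which encodes PU.1, stood at 4.34 and 5.36 and did not pass. None of 7 class II antigen presentation genes passed, and all 7 were lower in the ligated cells, with a median of -0.47. Of all 9798 measured genes in cluster 5, 5434 were higher in the ligated cells. H2-Ab1 stood at 71.1 in the mock and 44.0 in the ligated cells. Of 11 activation and cytokine genes 8 reached the minimum and 1 passed: Retnla, a gene of alternatively activated macrophages, stood at 1.25 in the mock cells and was listed at 0 in the ligated cells. Il1b stood at 1.92 and 1.89. Syk and Retnla reached the minimum through the mock cells alone, so the counts they enter support nothing by themselves.

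The genes with the most similar pattern were sought among 6653 genes by Pearson's r of log2(level + 0.1) across the 12 clusters with both libraries together, as a description of clusters that share libraries. For Csf1 they were Crtap (r = 0.965), Copz2 (0.941) and Fam114a1 (0.940), all highest in fibroblast-like cells. For Csf1r they were C3ar1 (0.996), Cybb (0.996) and Fcgr1 (0.993), for Adgre1 Cd33 (0.994), Siglece (0.994) and Clec4a3 (0.992), for Cd68 Siglece (0.994), Ly86 (0.992) and Cyp4f18 (0.989), for Trem2 Ppfia4 (0.990) and Siglece (0.987) among others, and for Lyz2 C1qc (0.991), C1qb (0.990) and Cd74 (0.988). All of these were highest in macrophage-like cluster 5. Mrc1 was most like Clec5a (0.967), Ccl12 (0.962) and Mmp12 (0.957), also highest in cluster 5. Gpnmb was most like Tenm3 (0.992), Lpar1 (0.981) and Vcan (0.975), all highest in the Schwann-like cluster. For Cd163 and Folr2, whose levels rest on a few UMIs, Ptafr came first (0.960 and 0.963).

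In the genome (GRCm38.p6) Csf1 lies at chr3:107741048-107760469, Adgre1 at chr17:57358581-57483529, Cd68 at chr11:69664213-69666170, Lyz2 at chr10:117277541-117282272, Trem2 at chr17:48346401-48352276, Mrc1 at chr2:14229414-14332023, Gpnmb at chr6:49036518-49058182, Cd163 at chr6:124304636-124330529 and Folr2 at chr7:101839988-101857190. None of the 10 genes shares exon sequence on its own strand with another annotated gene. Lyz2 has a close paralog, Lyz1, and how reads common to both were treated is not given in the sources used here.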

How the data were processed

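Droplet single-cell RNA was measured in 2 libraries, 1 per condition. Reads were processed with Cell Ranger 6.0.1, Seurat and build mm10, per the submitters' processing notes; cell filters, clustering settings and doublet removal are not given in the sources used here. The authors deposited 4 tables of cluster means as other units (linear, per 10000 UMIs of the cell); each column sums to 10000. They hold no counts, so no count model was fitted. Date strings stood in place of 21 symbols, which row order restored. Columns left without a sample numbered 0.

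Cell numbers came from the weight that makes each joint mean the mean of the split means (largest residual 1.5e-07) and from genes seen in a single cell; the method recovered known cell numbers in simulated data. UMI totals came from genes whose value is 1 UMI in 1 cell, needing at least 2 genes per total. Clusters were named "X-like" from lists for 17 cell types, and doublets were not removed here. Of 101 genes in 8 lists, 99 had a row, as did 105 of 109 marker genes. The tools were Python 3.11.15, numpy 2.4.6, pandas 2.3.3 and scipy 1.17.1.

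The 10 genes and all lists were chosen with earlier results of these data known. Genes named are the 10 genes, list genes that passed the size rule in cluster 5 or whose role is described, marker genes beside a result, and up to 3 most similar genes of each; some genes are not reported here. Alternatives were other pseudocounts, thresholds and minimum levels, centring, subtraction of other-type background, leaving out genes listed in 1 library only and least squares weights.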

Additional observations from a re-analysis of the deposited data

Results flagged for a closer look

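Cluster 8, led by salivary secretory genes and left unnamed, held 25 mock cells and entered no comparison. Of the 10 genes and Il34, 4 stood there at 0.5 or more in the 264 ligated cells while listed at 0 in the mock cells. The share of all genes with this pattern was not tested, so the count supports nothing by itself. Csf1 stood at 0.546, Cd68 at 0.574, Lyz2 at 2.72 and Il34 at 0.632. Relative to their library means, the median marker of other cell types reached 107.1% among these ligated cells and 0.647% among the mock cells. Among 25 mock cells, 3 UMIs at median depth give a level of 0.221.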

How the results depend on the processing

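No paired analysis was possible because each condition has 1 library, and no library can be left out. Of 31 gene differences under 4 settings each, 28 of 124 values kept their direction but left the counting interval of the value reported, of which 21 moved toward 0, and 1 more reversed. Csf1 in endothelial-like cluster 0 was -0.42 with a pseudocount of 1 and -1.16 with 0.01, Il34 in the fibroblast-like cluster was 1.24 with a pseudocount of 1, and Lyz2 in the macrophage-like cluster was 0.0082 when centred on the median gene. Spp1 in the macrophage-like cluster reversed to -1.82 after subtraction of other-type background. The pairs of a gene and a compared cluster past the size rule numbered 4, and 1 with a pseudocount of 1 and 9 with a threshold of 1.5-fold.

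Counts of all genes past the rule follow the thresholds by construction. With a pseudocount of 1 they were 78 in cluster 0 (254 as reported), 112 in cluster 3 (368), 73 in cluster 4 (239), 65 in cluster 5 (270), 106 in cluster 6 (383), 151 in cluster 7 (861), 127 in cluster 10 (753), and 116 and 133 in subset clusters 0 and 3 (377 and 433). With no minimum level they were 532, 781, 572, 854, 976, 2556, 1620, 774 and 945 in the same order, and with a minimum of 2 they were 78, 110, 62, 51, 109, 185, 168, 119 and 137. Without genes listed in 1 library only, 160 remained in cluster 0 and 152 in cluster 4.

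In the ligated library, subtraction moved the share of summed Csf1 to 33.8% in endothelial-like cluster 0 and 39.0% in the fibroblast-like cluster, and that of Il34 to 70.1% in the fibroblast-like and 23.8% in the mural-like cluster. Least squares weights gave the same shares. The monocyte median was -0.39 with a pseudocount of 1 and -1.83 over the 4 genes whose mean reached 0.5, and the lipid and lysosome median was 0.16 with that minimum; the other list medians that could be formed moved by less than 0.1, among which those of lineage factors (0.01 with a pseudocount of 1) and activation genes (-0.02 with that minimum) changed sign. The 77 mock macrophage-like cells limit every value of cluster 5, and spread between animals is unknown.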

Other observations

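Csf2rb, a shared receptor chain, stood at 0.0187 in the mock and 0.184 in the ligated cells of endothelial-like cluster 0, below the minimum of the size rule, and at 0.356 and 0.445 in the second endothelial-like cluster. Csf2ra stood at 0.0785 in 17 mock and 0.677 in 271 ligated Schwann-like cells, which were not compared.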
